A study of Mus musculus with 24 samples.

Results

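The enzymes that carry out beta-oxidation in peroxisomes were followed as transcripts in mouse kidney, namely Ehhadh, Acaa1a, Acaa1b, Hsd17b4, Acox2, Acox3, Amacr and Scp2. They were chosen by symbol, as 8 of the 55335 genes in the count files, and all 8 were above the expression filter. Peroxisomal beta-oxidation shortens acyl chains by a cycle of oxidation, hydration, dehydrogenation and thiolytic cleavage. Straight chains pass through the bifunctional enzyme Ehhadh and the thiolases Acaa1a and Acaa1b. Methyl-branched chains and the side chains of bile acid precursors pass through the oxidases Acox2 and Acox3, the racemase Amacr and the thiolase encoded by Scp2, while the multifunctional protein Hsd17b4 takes substrates of both kinds. In the kidney these enzymes are found mainly in the proximal tubule, a segment rich in peroxisomes that burns fatty acids.

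RNA came from whole kidneys of 24 mice on the C57BL/6J background, 6 in each of 4 groups. The cKOm (male) and cKOf (female) mice were Pex5lox/lox/Pax8-rtTA/LC1, in which doxycycline (DOX) switches on Cre under Pax8-rtTA, a driver active in the renal tubule. Their controls, Ctrlm and Ctrlf, were Pex5lox/lox mice without the 2 transgenes. Every mouse was put on DOX at 8 weeks of age, stayed on it for 2 weeks and was studied 4 weeks later, so the floxed allele and the drug were shared by all groups, whereas rtTA and Cre were carried by the cKO mice alone. Pex5 encodes the receptor that brings most matrix enzymes into peroxisomes. Interstitial, vascular and glomerular cells are outside the driver and keep Pex5. The files give RNA only, and neither the location nor the activity of the enzymes was analysed here.

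All 8 are protein-coding genes and were counted over their exons. In GRCm38 the straight-chain genes are Ehhadh on chromosome 16 from 21761287 to 21787807 (minus strand), Acaa1a on chromosome 9 from 119339676 to 119350299 (plus strand) and Acaa1b on chromosome 9 from 119148023 to 119157093 (minus strand), the thiolase copies thus lying near each other. The branched-chain genes are Acox2 on chromosome 14 from 8225511 to 8259353 (minus strand), Acox3 on chromosome 5 from 35583040 to 35615352 (plus strand), Amacr on chromosome 15 from 10981756 to 10996626 (plus strand) and Scp2 on chromosome 4 from 108043839 to 108144998 (minus strand).

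The end of each coding sequence is shown because the PEX5 receptor reads its targeting signal, PTS1, at the C-terminus of its cargo. The last 30 coding bases are given 5′ to 3′ from the GENCODE transcripts of GRCm38, with the last 3 codons and the stop codon in capitals.
Ehhadh: ttggcaggaccccatagcAGCAAACTGTGA
Acox2: ctgatgcaaagctggaaaCCCAAGCTGTGA
Acox3: gtagccgacaggctaaagTCCCAGCTGTAG
Amacr: gaaagtgataagctaaaaGCCAATCTCTGA
Scp2: cagcttcagccgggcaaaGCTAAGCTGTGA
Acaa1a: gctgcggtctttgaatacCCTGGGAACTGA
Acaa1b: gctgcggtctttgaatacCCTGGGAACTGA
The 2 thiolase genes share 1 ending, which differs from the other 5. Peroxisomal thiolase is known to carry its signal, PTS2, near the N-terminus instead, and the first 90 coding bases of the pair are therefore shown with the 3 bases at which they differ in capitals.
Acaa1a: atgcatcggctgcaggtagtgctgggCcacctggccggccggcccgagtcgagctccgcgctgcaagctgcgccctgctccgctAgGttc
Acaa1b: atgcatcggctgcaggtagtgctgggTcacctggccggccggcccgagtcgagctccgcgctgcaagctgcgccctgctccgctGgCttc
Over 1275 coding bases the thiolases differed at 44 and were 96.5% identical, without gaps. Of all stretches of 50 bases in the transcript of Acaa1b 35.5% occurred unchanged in that of Acaa1a, and of all stretches of 100 bases 22.6% did. Reads that lie wholly in such stretches fit both copies and would be set aside as aligned to several places, so both are counted from the rest of their length. How many reads this removed from each copy is not known, and the read length is not given in the sources used here.

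Between 19376152 and 28470831 reads per kidney had been counted on genes. The 8 transcripts received 1275 to 28280 counts per kidney, so that spread between mice and not counting error set the precision. Levels are in CPM, the reads of a gene scaled to libraries of equal size with TMM factors, and are given as mean ± SD with n = 6 mice per group. Changes are log2 fold changes with their standard error from edgeR's quasi-likelihood test, over 16092 genes tested. Benjamini-Hochberg adjustment took the male and the female genotype tests of all these genes together, and each other contrast by itself, and a transcript was called changed at an adjusted p below 0.05. Pex5 itself, counted over all exons and all cells, was 43.7 ± 1.94 CPM in cKOm against 54.3 ± 4.63 in Ctrlm mice (log2 fold change −0.31, edgeR adjusted p = 0.0219) and 43.6 ± 3.55 in cKOf against 50.3 ± 6.97 in Ctrlf mice (−0.21, edgeR adjusted p = 0.177). The male value was close in size but did not pass when Ctrlm mouse 2 (−0.27, edgeR adjusted p = 0.0656) or cKOm mouse 4 (−0.30, edgeR adjusted p = 0.0504) was left out, or without the 5 kidneys described next (−0.26, edgeR adjusted p = 0.382). By the study's own assays Pex5 mRNA was significantly lower in both cKO sexes. PEX5 protein was almost absent in cKOm mice but still detected, at a much lower level, in cKOf mice. Some full-length mRNA also remained in cKOf mice, for which the study proposes incomplete excision. Its electron microscopy found almost no peroxisomes in proximal tubules of either cKO sex. The whole-gene count is a different measure from these. In bulk kidney RNA, fewer cells of a type and less RNA per cell cannot be told apart.

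Some kidneys stood apart in transcripts of another tissue. The summed level of 19 hepatocyte markers was 609 to 1106 CPM in Ctrlm mice 1 to 4 and 647 CPM in cKOm mouse 4, against 72.0 to 241 CPM in the other 19 kidneys. Of the 19 markers, 5 were lower and 1 higher in cKOm than in Ctrlm mice by edgeR, and in females 0 passed by edgeR, limma-voom or DESeq2 and 2 had an unadjusted p below 0.05. Albumin reached 662 CPM in Ctrlm mice, and none of the 19 markers was at 0 throughout a group. The 8 enzymes are also made in liver. The fit was therefore repeated without those 5 kidneys, which left 2 Ctrlm and 5 cKOm mice. The proximal tubule markers, 12 genes, summed to 12499 to 13943 CPM in Ctrlm mice and 11151 to 12177 in cKOm mice, while the female sums were 12924 to 14455 CPM (Ctrlf) and 12728 to 13897 CPM (cKOf). All 12 were detected, 4 of them were lower in cKOm mice, and in females 0 passed by the same 3 tools and 3 had an unadjusted p below 0.05. Of 7 distal nephron markers 2 were higher and 1 lower in cKOm mice (summed medians 5274 CPM in Ctrlm and 6089 CPM in cKOm mice), and 1 of 6 macrophage markers was lower, with a median log2 fold change of −0.48 over the 6. What part these shifts had in the changes below was not tested.

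In male kidneys lacking tubular Pex5, the straight-chain enzymes Acaa1b and Ehhadh rose while the branched-chain enzymes Amacr and Acox3 fell. Amacr fell by 61.1% and Acox3 fell by 51.3%. Hsd17b4 rose by a smaller amount, and Acaa1a, Acox2 and Scp2 did not pass the test. Thus 5 of the 8 enzymes were called, 3 higher and 2 lower, whereas 9.05% of all tested genes were called in this comparison, 4.14% higher and 4.9% lower. The study had already named these 5 as changed from the same data. The 8 were chosen with such results known, so the count is a description only. In female kidneys Acaa1b and Ehhadh rose, Acox3 fell by 18.4%, and the other 5 enzymes did not pass. These 3 calls stand against 0.851% of all tested genes, 0.391% higher and 0.46% lower. The 6 cKO and the 6 Ctrl mice did not overlap for 4 enzymes in males and 3 in females, as compared with 7.38% and 0.559% of all tested genes. For enzymes without overlap the two-sided exact permutation test of mean CPM can only give 0.00216, its smallest p with 6 mice a side. There it adds nothing to the lack of overlap. For Hsd17b4 in males, where the groups overlapped, the same test gave an exact p of 0.00433. Changes in opposite directions left the median log2 fold change of the 8 enzymes at −0.06 in males and 0.05 in females, beside 0.01 and 0.00 over all tested genes. Without the 5 kidneys rich in hepatocyte transcripts, 4 enzymes were called in males and 3 in females. Over all genes that fit called 599 in males and 83 in females, against 1456 and 137 with all kidneys.

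**Figure D1:**
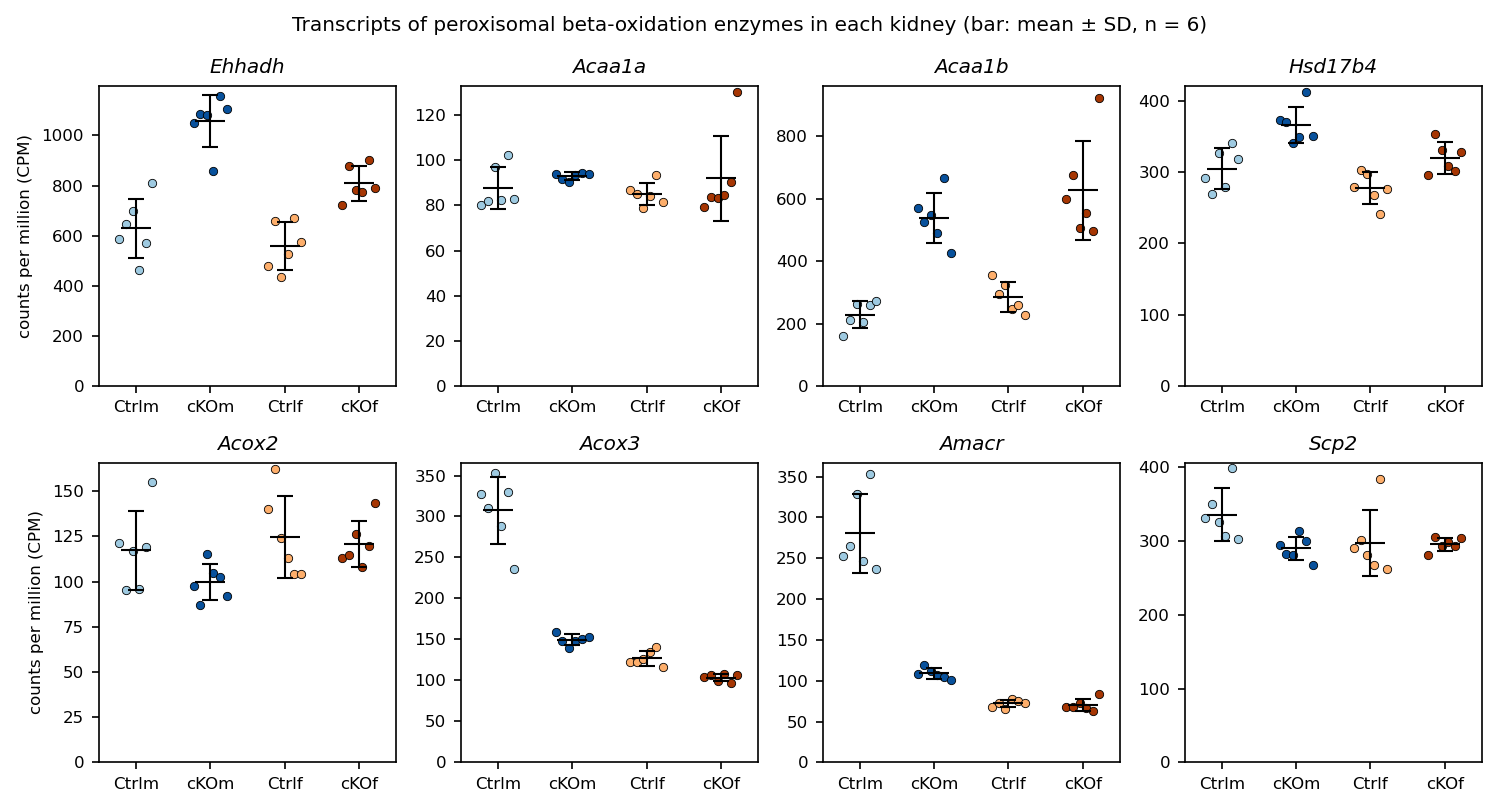
Each panel plots 1 enzyme, with the 4 groups on the horizontal axis and CPM from 0 on the vertical axis; points are single kidneys and bars are mean ± SD (n = 6). Acaa1b and Ehhadh are higher in every cKO mouse than in every control of the same sex, Amacr and Acox3 are highest in Ctrlm mice, and Acaa1a is at a like level in all groups.

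Among the straight-chain enzymes, Ehhadh, which hydrates and then dehydrogenates the chain, spanned 464 to 809 CPM in Ctrlm mice with a median of 616, and 857 to 1159 CPM in cKOm mice with a median of 1085. In females it spanned 433 to 669.8 CPM in Ctrlf mice, median 550.3, and 721 to 904 CPM in cKOf mice, median 786. The lowest cKO mouse was above the highest control in both sexes. The rise was 1.68-fold in males (629 ± 119 against 1057 ± 104 CPM, log2 fold change 0.75 with a standard error of 0.11, edgeR adjusted p = 7.9e-05) and 1.45-fold in females (557 ± 96.0 against 809 ± 69.2 CPM, 0.54 with a standard error of 0.11, edgeR adjusted p = 0.0037). Its male and female changes differed by 0.21, with a 95% interval from −0.11 to 0.53, and the interaction did not pass (edgeR adjusted p = 0.615).

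Acaa1b is 1 of the 2 mouse genes for the thiolase that cleaves the straight chain, and the copy known to be induced by peroxisome proliferators in liver. In Ctrlm mice it ranged from 161 to 273 CPM with a median of 234, and in cKOm mice from 425 to 666 with a median of 536.5. Ctrlf mice had 228 to 356 CPM, median 277, and cKOf mice had 498 to 923 CPM, median 577. Again no cKO mouse reached down to its controls. The rise was 2.35-fold in males (228 ± 43.4 against 537 ± 81.0 CPM, log2 fold change 1.23 with a standard error of 0.15, edgeR adjusted p = 2.4e-06) and 2.20-fold in females (285 ± 49.0 against 626 ± 159.5 CPM, 1.14 with a standard error of 0.15, edgeR adjusted p = 8.4e-06). The interaction did not pass (0.10, 95% interval −0.31 to 0.51, edgeR adjusted p = 0.875). Without the 5 kidneys, the male rise was 1.01 on the log2 scale (edgeR adjusted p = 0.0124).

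Acaa1a, its close copy, stayed within a narrow band apart from 1 cKOf mouse. Its median was 82.7 CPM in Ctrlm mice, with a range from 80.0 to 102, and 93.8 in cKOm mice, with a range from 90.3 to 94.4. Ctrlf mice had a median of 84.7 CPM, from 78.8 to 93.4, and cKOf mice 84.3, from 79.3 to 130.1. The groups overlapped in both sexes. Neither change passed the test, with a log2 fold change of 0.08 in males (95% interval −0.10 to 0.27, edgeR adjusted p = 0.752) and 0.11 in females (−0.07 to 0.30, edgeR adjusted p = 0.636). These intervals lie below the rises of Acaa1b. Of the counts on both thiolases, Acaa1b took 71.9% ± 3.18 in Ctrlm and 85.0% ± 1.94 in cKOm mice, and 76.7% ± 3.23 in Ctrlf and 87.0% ± 1.61 in cKOf mice. The shares did not overlap between genotypes, with Ctrlm mice at 66.9% to 76.7% and cKOm mice at 81.9% to 87.6%, and Ctrlf mice at 73.6% to 80.5% and cKOf mice at 84.6% to 89.0%. Acaa1a also shares 290 exon bases with Myd88 and Acaa1b 224 with Dlec1, each on the opposite strand, and the strand setting of the counting is not given in the sources used here.

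Hsd17b4, the second hydratase and dehydrogenase of peroxisomes and the one that serves both kinds of chain, lies on chromosome 18 from 50128201 to 50196269 (plus strand), and its sequence is not printed. It ranged from 269 to 341 CPM in Ctrlm mice (median 305) and from 341 to 412 CPM in cKOm mice (median 360.4). In females the range was 242 to 303 CPM in Ctrlf (median 278) and 296 to 354 CPM in cKOf mice (median 318). In males 5 of 6 cKOm mice were above all Ctrlm mice, and in females 4 of 6 cKOf mice were above all Ctrlf mice. The change on the log2 scale was 0.27 for males (edgeR adjusted p = 0.0306) and 0.20 for females (edgeR adjusted p = 0.126), each with 0.07 as its standard error. Single mice decided the male call. It was lost without Ctrlm mouse 1 (0.25, adjusted p = 0.0698), 2 (0.23, 0.0773), 4 (0.24, 0.0727) or 6 (0.25, 0.0718), without cKOm mouse 1 (0.26, 0.0596), 2 (0.26, 0.0610) or 5 (0.21, 0.156) and without Ctrlf mouse 4 (0.24, 0.0580), all by edgeR. Without the 5 kidneys rich in hepatocyte transcripts the male change was 0.13 (edgeR adjusted p = 0.674).

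The branched-chain enzymes were led by Amacr, the racemase that turns the methyl group of branched acyl-CoA and bile acid intermediates into the form the oxidases accept. In Ctrlm mice it had 237 to 353 CPM with a median of 259, and in cKOm mice 101 to 119.6 CPM with a median of 108. Females held it at 65.9 to 77.8 CPM in Ctrlf mice, median 72.8, and 62.8 to 83.9 CPM in cKOf mice, median 68.0. Male genotypes were far apart, and female genotypes overlapped throughout. The level fell from 281 ± 48.1 to 109 ± 6.37 CPM in males (log2 fold change −1.36, standard error 0.09, edgeR adjusted p = 3.2e-10), and was 72.2 ± 4.41 and 70.3 ± 7.32 CPM in females (−0.04, 95% interval −0.22 to 0.14, edgeR adjusted p = 0.903). The male change was lower than the female change by 1.33 on the log2 scale (−1.33, standard error 0.13, edgeR test of the interaction, adjusted p = 4.4e-07). Without the 5 kidneys the male log2 fold change was −1.47 (edgeR adjusted p = 8.1e-07).

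Acox3, the oxidase that takes pristanoyl-CoA and starts the cycle on methyl-branched chains, had 236 to 353 CPM in Ctrlm mice with a median of 319, and 139.9 to 159.5 CPM in cKOm mice with a median of 149. In females the range was 116 to 141 CPM in Ctrlf mice, median 124, and 97.1 to 107 CPM in cKOf mice, median 105. Each cKO mouse was below each control of its sex. The male level fell from 308 ± 41.0 to 149.9 ± 6.51 CPM (log2 fold change −1.04, standard error 0.08, edgeR adjusted p = 1.2e-09), and the female level from 127 ± 8.995 to 103 ± 4.27 CPM (−0.29, standard error 0.08, edgeR adjusted p = 0.0198). The interaction was −0.74 (standard error 0.11, edgeR adjusted p = 1.4e-04), the male fall being the larger. The female call was lost without Ctrlf mouse 5 (−0.26, edgeR adjusted p = 0.0552) and with adjustment over the female tests alone (edgeR adjusted p = 0.140). An antisense gene over Acox3, 4931431C16Rik, had 0 to 8 counts per kidney.

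Acox2, the oxidase of bile acid intermediates and branched chains, did not pass in either sex. It had 95.3 to 155 CPM in Ctrlm mice, median 118, and 87.0 to 115 CPM in cKOm mice, median 100.3. For females these values were 104 to 162 CPM in Ctrlf, median 119, and 108 to 143 CPM in cKOf, median 117. All groups overlapped. The log2 fold change was −0.23 in males (95% interval −0.46 to −0.0046, edgeR unadjusted p = 0.0559, adjusted p = 0.334) and −0.04 in females (−0.27 to 0.18, edgeR adjusted p = 0.914).

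Scp2 encodes the thiolase of the branched-chain arm and, from a promoter inside the gene, the sterol carrier protein 2, and its counts sum both. Ctrlm mice had 303 to 399 CPM, median 328, and cKOm mice 268 to 313 CPM, median 288. Ctrlf mice had 262 to 384 CPM, median 286, and cKOf mice 281 to 305 CPM, median 296. Of the 6 cKOm mice 5 were below all Ctrlm mice, and the female groups overlapped. The log2 fold change was −0.21 in males (95% interval −0.37 to −0.05, edgeR adjusted p = 0.162) and −0.01 in females (−0.17 to 0.15, edgeR adjusted p = 0.976). The male value passed when Ctrlf mouse 5, the highest of its group, was left out of the model (−0.24, edgeR adjusted p = 0.0403). Without the 5 kidneys rich in hepatocyte transcripts the male change was −0.34 and did not pass (edgeR adjusted p = 0.224).

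**Figure D2:**
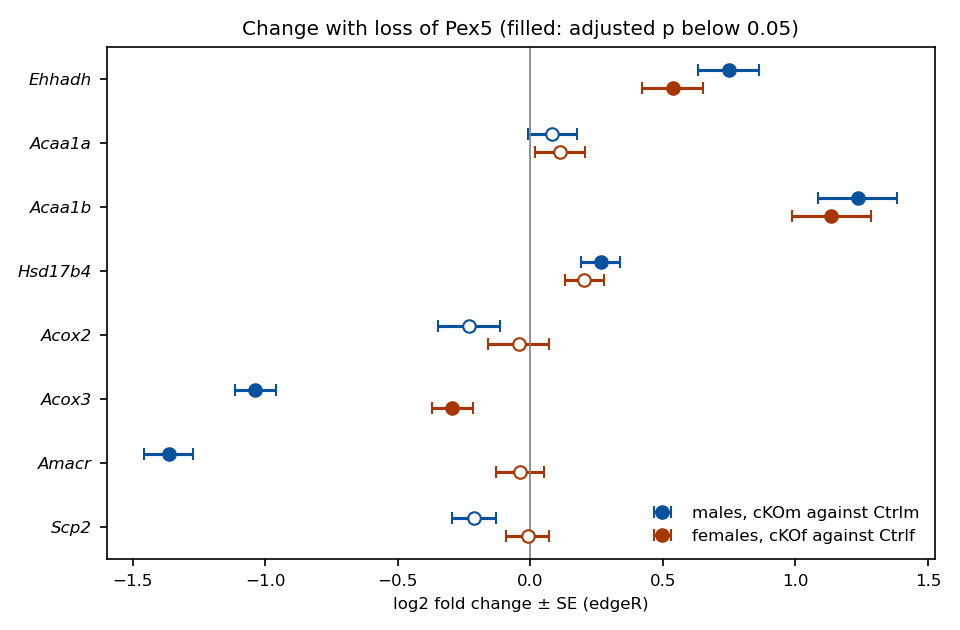
The horizontal axis is the log2 fold change of cKO against Ctrl mice with its standard error from edgeR, in males (blue) and females (brown), and each row is 1 enzyme. Filled points passed an adjusted p of 0.05. Acaa1b and Ehhadh lie to the right in both sexes, with Acaa1b at 1.23 and 1.14, while Amacr lies at −1.36 in males and −0.04 in females.

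The control sexes differed in 2 of the branched-chain enzymes. Amacr was 3.89-fold and Acox3 2.42-fold higher in Ctrlm than in Ctrlf mice, with no overlap (log2 differences 1.96 and 1.28, standard errors 0.09 and 0.08, edgeR adjusted p = 5.9e-15 and 1.0e-12). Only these 2 of the 8 enzymes passed between control sexes, both higher in males, whereas 16.8% of all tested genes passed, 8.71% higher and 8.11% lower in males, and 7.35% did not overlap. In the cKO mice the gap was narrower but still present, with Amacr 1.55-fold and Acox3 1.45-fold higher in cKOm than in cKOf mice (log2 differences 0.63 and 0.53, edgeR adjusted p = 2.0e-05 and 2.1e-05). Ehhadh was 1.31-fold higher in cKOm than in cKOf mice (0.39, standard error 0.11, edgeR adjusted p = 0.0338). That makes 3 enzymes higher in males among cKO mice, beside 8.14% of all tested genes called and 4.14% called higher. Amacr and Acox3 did not overlap between the cKO sexes, as compared with 6.77% of all tested genes. The comparisons between sexes and between genotypes use the same mice, so they are not independent of each other. The interaction passed for 2 of the 8 enzymes, both with the lower value in males, while 2.31% of all tested genes passed, 1.49% with the lower value in males. Both calls held in every alternative that gave them, among them leaving out each mouse. The study still detected some PEX5 protein in cKOf mice. For the interaction and the cKO sexes, sex therefore cannot be told apart from how completely Pex5 was lost.

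The call of Ehhadh between cKO sexes was less stable. Leaving out cKOm mouse 1 (0.39, adjusted p = 0.0534), 2 (0.38, 0.0633), 3 (0.38, 0.0628), 5 (0.36, 0.0811) or 6 (0.37, 0.0623), or cKOf mouse 1 (0.35, 0.0753), 3 (0.38, 0.0602), 4 (0.37, 0.0621) or 6 (0.38, 0.0590), took it past the threshold by edgeR. Scp2 was 0.17 higher on the log2 scale in Ctrlm than in Ctrlf mice and did not pass (edgeR adjusted p = 0.161), but passed without Ctrlf mouse 5 (0.28, edgeR adjusted p = 0.0069). Acaa1b was lower in Ctrlm than in Ctrlf mice by a value that did not pass (−0.32, 95% interval −0.61 to −0.03, edgeR adjusted p = 0.149).

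The balance of the 2 arms was described as the mean log2 CPM of Ehhadh, Acaa1a and Acaa1b less that of Acox2, Acox3, Amacr and Scp2, with Hsd17b4 left out because it serves both. It was −0.06 ± 0.17 in Ctrlm mice and 1.34 ± 0.10 in cKOm mice, and for females 0.81 ± 0.04 (Ctrlf) and 1.49 ± 0.13 (cKOf). The shift with genotype was 1.40 in males and 0.68 in females. In males Acaa1b, Ehhadh, Amacr and Acox3 passed one by one, and Acaa1a, Acox2 and Scp2 did not. In females the log2 fold changes were 1.14 for Acaa1b, 0.54 for Ehhadh and −0.29 for Acox3. Acaa1a (0.11), Acox2 (−0.04), Amacr (−0.04) and Scp2 (−0.01) did not pass there. By mouse, the balance spanned −0.29 to 0.22 in Ctrlm, 0.73 to 0.86 in Ctrlf, 1.17 to 1.49 in cKOm and 1.33 to 1.70 in cKOf mice. Control sexes were thus apart, and the cKO sexes overlapped. These are sums over genes already tested one by one, so no test was made. Without the 5 kidneys rich in hepatocyte transcripts the male shift was 1.34, and with any 1 mouse left out it was 1.35 to 1.45 in males and 0.64 to 0.71 in females.

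**Figure D3:**
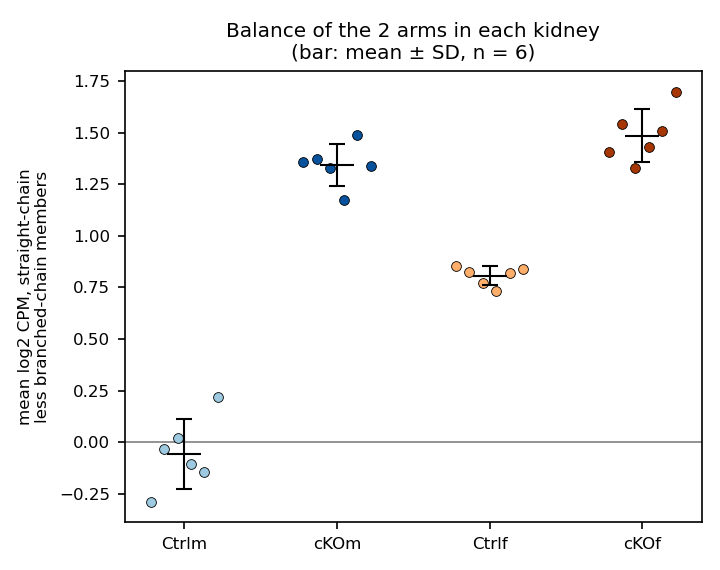
The vertical axis is the mean log2 CPM of 3 straight-chain enzymes less that of 4 branched-chain enzymes, the groups are on the horizontal axis, points are single kidneys and bars are mean ± SD (n = 6). Ctrlm mice lie around −0.06, Ctrlf mice around 0.81, and both cKO groups above 1.17.

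Levels between enzymes were compared as CPM per kilobase of the principal transcript. In Ctrlm mice Ehhadh was first at 211 ± 39.8 and Acaa1b second at 135 ± 25.7, with Scp2 at 127, Hsd17b4 at 113, Amacr at 109 and Acox3 at 104 behind them. Each of these overlapped its neighbour over the 6 mice, and only the step from Acox3 to Acaa1a at 49.8 was clear of overlap, with Acox2 last at 40.3. In cKOm mice Ehhadh at 355 and Acaa1b at 318 overlapped each other and stood clear of Hsd17b4 at 136, followed by Scp2 at 109.8, Acaa1a at 52.8, Acox3 at 50.7, Amacr at 42.3 and Acox2 at 34.4. In Ctrlf mice the order was Ehhadh 187, Acaa1b 169, Scp2 113, Hsd17b4 103, Acaa1a 48.3, Acox3 42.9, Acox2 42.9 and Amacr 28.0 CPM per kilobase, and the steps from Hsd17b4 to Acaa1a and from Acox2 to Amacr were clear of overlap. Acaa1b led in cKOf mice at 371 ± 94.4, overlapping Ehhadh at 271, and Amacr was last at 27.3. The lower part of this order depends on the length used. Per kilobase of all annotated exons, which for Acox3 (11521 bases) and Acaa1a (4414 bases) are far longer than the principal transcripts (2956 and 1762 bases), Acox3 was at 26.7 in Ctrlm and 8.98 CPM per kilobase in cKOf mice, its highest and lowest group. On that scale Acaa1a was last in Ctrlm mice at 19.9, and Acox3 was last in each other group, while Ehhadh in males and Ctrlf mice and Acaa1b in cKOf mice stayed first. Together the 8 enzymes made up 2291 ± 211 CPM in Ctrlm mice, 2702 ± 176 CPM in cKOm mice, and in females 1826 ± 129.5 CPM (Ctrlf) and 2437 ± 216 CPM (cKOf). Ehhadh and Acaa1b provided 27.4% and 9.92% of that sum in Ctrlm mice and 39.1% and 19.8% in cKOm mice, and Acox3 and Amacr 13.5% and 12.2% in Ctrlm and 5.56% and 4.05% in cKOm mice.

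Pairs of enzymes were alike over the 24 kidneys to different degrees. Acox3 and Amacr had a Pearson correlation of log2 CPM of 0.97 over the 24 mice and 0.54 after each mouse was set against its group mean. Ehhadh and Hsd17b4 had 0.74 and 0.14, and Ehhadh and Acaa1b had 0.68 and 0.07, so that most of their likeness lay between groups. Scp2 had 0.57 and 0.49 with Acox3, and 0.55 and 0.40 with Amacr. Pairs from different arms were also alike within groups, with Acaa1a and Amacr at 0.09 over the 24 mice and 0.70 within groups, and Acox2 and Acaa1b at −0.01 and 0.51. Acaa1a, Amacr, Acaa1b and Acox2 were each highest of their group in cKOf mouse 6 (130.1, 83.9, 923 and 143 CPM). Correlations without this mouse were not computed. Hsd17b4 and Acaa1b had 0.63 and 0.56. Acox3 and Acaa1b had −0.66 over the 24 mice. These values are descriptions over kidneys that differ in genotype, sex and library depth. Among 14072 genes with a mean of at least 1 CPM, the 2 most like Amacr were Ldhd (0.98), a D-lactate dehydrogenase, and Cndp2 (0.98), a dipeptidase. For Acox3 they were Ldhd (0.98) and Acss2 (0.98), which activates acetate. For Ehhadh they were Vnn1 (0.88) and Cyp4a31 (0.88), for Acaa1b Acot1 (0.92) and Cyp4a10 (0.90), and for Hsd17b4 Decr1 (0.89) and Abcd3 (0.89), genes of fatty acid metabolism apart from Vnn1, a pantetheinase. Scp2 was most like C1d (0.87) and Prdx1 (0.86), Acaa1a most like Tsr3 (0.80) and Imp3 (0.79), and for Acox2 the value of Pdia4 was 0.72.

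The steps around the 8 enzymes were read from lists of other genes. Abcd3, an ABC transporter that brings acyl-CoA into peroxisomes, rose in both sexes, from 478 to 674 CPM in males (log2 fold change 0.50, edgeR adjusted p = 2.1e-04) and from 415 to 555 CPM in females (0.42, edgeR adjusted p = 0.0015). Among 5 auxiliary enzymes of unsaturated chains, 3 passed in males. Decr2, the dienoyl-CoA reductase, rose (0.69, edgeR adjusted p = 4.3e-05), while the enoyl-CoA reductase Pecr (−1.29, edgeR adjusted p = 2.6e-07) and the isomerase Eci3 (−0.81, edgeR adjusted p = 2.9e-05) fell. In females 0 of the 5 passed by edgeR, limma-voom or DESeq2, and 2 had an unadjusted p below 0.05, with Decr2 at 0.22, Pecr at −0.23 and Eci3 at −0.05. The interaction passed for Pecr (−1.06, edgeR adjusted p = 0.0013) and Eci3 (−0.77, edgeR adjusted p = 0.0073).

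Of 4 genes of alpha-oxidation and chain activation, which prepare phytanic acid for the branched-chain arm, 2 fell in males and 1 rose in females. The acyl-CoA synthetase Slc27a2 fell from 3935 to 2785 CPM in males (−0.50, edgeR adjusted p = 1.4e-04) and was 2834 and 2959 CPM in females (0.06, edgeR adjusted p = 0.789). The aldehyde dehydrogenase Aldh3a2 fell in males (−0.29, edgeR adjusted p = 0.00535), and Phyh, the phytanoyl-CoA hydroxylase, rose in females (0.34, edgeR adjusted p = 0.0157) and was −0.11 in males (edgeR adjusted p = 0.619). Of 7 genes that build bile acid precursors before the peroxisome, 2 fell in males. Cyp7b1, an oxysterol hydroxylase, went from 143 to 24.3 CPM (−2.56, edgeR adjusted p = 2.6e-08) and Cyp27a1, which oxidizes the sterol side chain, from 43.8 to 32.0 CPM (−0.46, edgeR adjusted p = 0.0060). In females 0 genes of that list passed by edgeR, limma-voom or DESeq2, or had an unadjusted p below 0.05, and there Cyp7b1 was at 2.49 and 2.26 CPM. Cyp7a1, Cyp8b1 and Slc27a5, defining genes of bile acid synthesis in liver, had group means of 0.0677 to 1.75 CPM.

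Of 13 thioesterases, acyltransferases and CoA hydrolases that end or export the products, 12 were tested, and 5 rose and 3 fell in males while 4 rose and 1 fell in females. The thioesterase Acot3 rose from 16.2 to 64.5 CPM in males (2.00, edgeR adjusted p = 3.25e-09) and from 64.9 to 127 CPM in females (0.96, edgeR adjusted p = 9.3e-05). Acnat1, an acyltransferase to amino acids, rose in males (1.10, edgeR adjusted p = 3.8e-04), and Nudt19, a CoA hydrolase, fell (−1.09, edgeR adjusted p = 1.6e-04). In females these were −0.01 and −0.15 and did not pass (edgeR adjusted p = 0.988 and 0.764). Baat, which joins bile acids to amino acids, fell in females from 9.83 to 3.44 CPM (−1.51, edgeR adjusted p = 0.0029) and was at 1.72 and 1.29 CPM in males. Crot, the octanoyl transferase that hands shortened chains to carnitine, is 1 of the 3 that fell and is named because of its value. It went from 373 to 177 CPM in males (−1.07, edgeR adjusted p = 1.7e-08), and was −0.09 in females (edgeR adjusted p = 0.725).

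Of 15 genes of mitochondrial beta-oxidation, 5 rose and 2 fell in males and 3 rose in females. Acaa2, the mitochondrial thiolase, rose in both sexes (0.82 in males, edgeR adjusted p = 3.5e-05, and 0.57 in females, edgeR adjusted p = 0.0024), as did the carnitine carrier Slc25a20 (0.80, edgeR adjusted p = 3.1e-05, and 0.46, edgeR adjusted p = 0.0124). The dehydrogenases Acadm (−0.52, edgeR adjusted p = 0.0153) and Acads (−0.47, edgeR adjusted p = 0.0030) fell in males. Of 14 further targets and regulators of PPARα, the receptor that induces fatty acid oxidation, 10 rose in males and 6 in females, and 0 fell by edgeR, limma-voom or DESeq2. Among them were Cyp4a14, a fatty acid hydroxylase (4.33 in males, edgeR adjusted p = 5.5e-06), and Pdk4, a kinase that restrains pyruvate oxidation (2.15, edgeR adjusted p = 3.4e-04), with 1.55 and 1.05 in females that did not pass (edgeR adjusted p = 0.0674 and 0.102). The transcription factor Creb3l3 passed in females (1.74, edgeR adjusted p = 0.0416), at 0.270 and 0.918 CPM, and its interaction did not pass (edgeR adjusted p = 0.0933). Both female means are under the 1 CPM of the filter, so such a gene can enter the tests through the group where it is higher. Its female call was lost without the 5 kidneys rich in hepatocyte transcripts (edgeR adjusted p = 0.0875). Ppara itself did not pass in either sex (0.54 and −0.08, edgeR adjusted p = 0.261 and 0.923). The median log2 fold change over the list was 1.28 in males and 1.06 in females.

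The auxiliary and the activation lists had as many male calls without the 5 kidneys rich in hepatocyte transcripts, which left 2 Ctrlm mice, as with them, and the other lists had fewer. By edgeR 3 of 5 auxiliary genes, 2 of 4 genes of alpha-oxidation and activation, 1 of 4 bile acid genes still above the filter, 3 of 12 exit genes, 2 of 15 mitochondrial genes and 7 of 14 PPARα genes passed. Among the genes named, the male call was lost for Abcd3 (0.45, edgeR adjusted p = 0.0779), Cyp27a1 (−0.50, 0.110), Acnat1 (0.84, 0.108), Acaa2 (0.61, 0.0606), Acads (−0.53, 0.0589) and Pdk4 (1.57, 0.147), each with the direction kept. It held for Pecr, Eci3, Decr2, Slc27a2, Aldh3a2, Cyp7b1, Acot3, Nudt19, Crot, Acadm, Slc25a20 and Cyp4a14. All female kidneys were kept in this fit, but the model is shared by both sexes. The female call was lost for Phyh (0.33, edgeR adjusted p = 0.0614) and Creb3l3 (1.74, edgeR adjusted p = 0.0875). Cyp4a14 passed in females there (1.54, edgeR adjusted p = 0.0392).

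**Figure D4:**
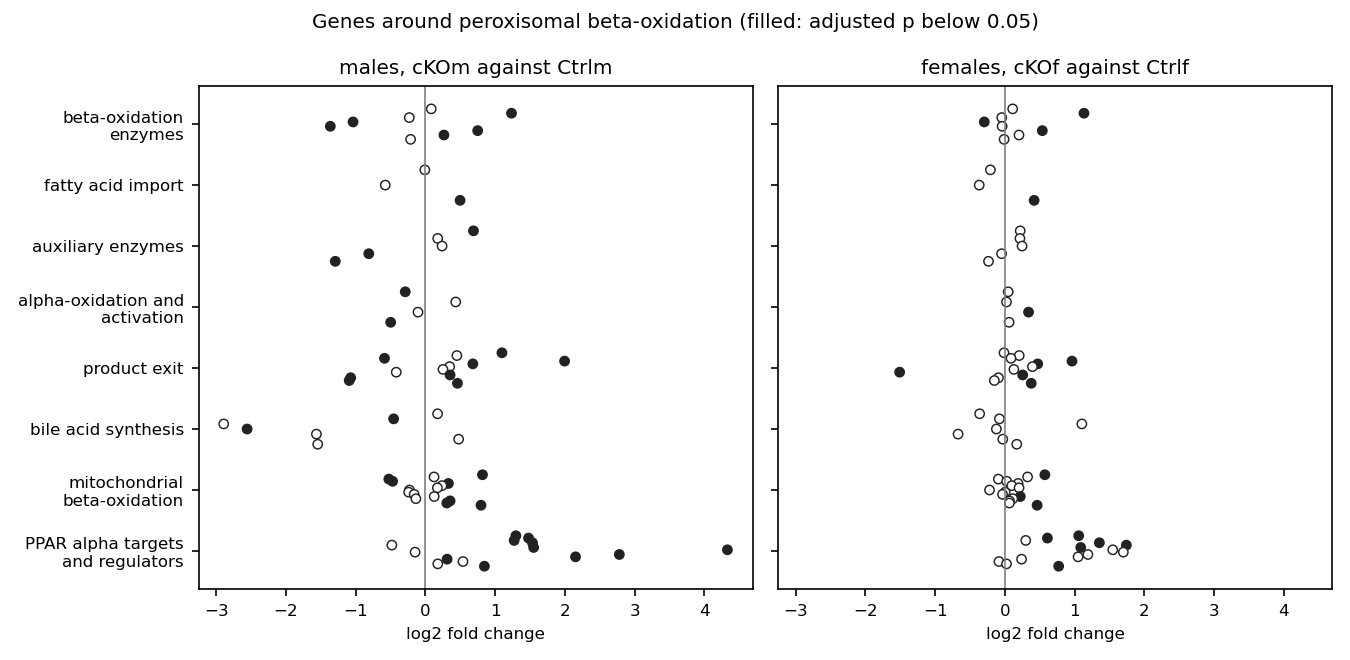
Each row is a list of genes, each point is 1 gene, the horizontal axis is the log2 fold change of cKO against Ctrl mice in males (left) and females (right), and filled points passed an adjusted p of 0.05. The PPARα list lies to the right in both sexes, with 10 and 6 of 14 genes called, and falls among the auxiliary, activation, bile acid and exit genes are seen mostly in males.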

How the data were processed

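Whole-kidney RNA of 24 mice had been made into stranded mRNA libraries. The authors trimmed reads with cutadapt 1.8, aligned them with STAR 2.5.3a and counted them on genes with HTSeq 0.9.1, and deposited whole-number counts per gene without normalization. The 5 closing lines of each file, for reads not counted on a gene, were left out and held 34.0% to 41.5% of all reads, of which alignments to several places made up 26.9% to 34.8% of all reads. Groups came from the labels. Mice of a group differed by more than sampling noise (chi-square per degree of freedom 9.83 to 99.2 over 60 pairs).

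A gene entered the tests when 1 or more kidneys had 1 CPM or more. The model (edgeR 4.0.16 in R 4.3.3) had 1 term for each of the 4 groups, TMM scaling and quasi-likelihood tests. Benjamini-Hochberg adjustment pooled the genotype tests of both sexes and was made per contrast elsewhere, at 0.05. Log2 CPM used a prior count of 2. Intervals are 95% intervals from the standard error of the fit and the normal distribution, and are somewhat narrower than edgeR's test would give. Alternatives were limma-voom (limma 3.58.1), DESeq2 1.42.0, RLE scaling, 2 other filters, each sex alone, adjustment within each contrast, the replicate number as a block, the hepatocyte markers as a covariate, each mouse left out and, chosen after the data were seen, the 5 kidneys over 500 CPM of hepatocyte markers left out. For the balance of the 2 arms, leaving out each mouse was likewise chosen after the data were seen. On simulated data, 143 of 200 genes changed by 1 on the log2 scale were recovered with 3 false calls over 15671 genes in males, and 142 with 2 false calls over 15703 genes in females. Names, positions and sequences came from GENCODE annotation of GRCm38, which named 55154 of the 55335 genes.

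The 8 enzymes and all lists were chosen with earlier results of these data known. Named genes were the 8 enzymes, Pex5, up to 4 genes per list with the largest change past the threshold in either sex, and the 2 genes most correlated with each enzyme. Crot, Ppara, Cyp7a1, Cyp8b1, Slc27a5, albumin and genes overlapping an enzyme were named beyond this rule. Some genes that this rule names are not reported here, although counts over lists include them. Figures were made with Python 3.11.15 and matplotlib 3.10.9.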

Additional observations from a re-analysis of the deposited data

Results flagged for a closer look

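Amacr and Acox3 changed to a different extent in the 2 sexes by the test of the interaction, with male less female log2 fold changes of −1.33 for Amacr (edgeR adjusted p = 4.4e-07) and −0.74 for Acox3 (edgeR adjusted p = 1.4e-04). By the study's account some PEX5 protein remained in cKOf mice, and what part this had was not tested.

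Among the 32 values of an enzyme in a group of 6 mice, 3 had a mouse far from the others, and chance alone places about 1 group in 20 there. Ehhadh was lowest in cKOm mouse 4, at 857 CPM against 1050.1 in the nearest mouse, and this kidney was also the 1 cKOm kidney rich in hepatocyte transcripts. Acaa1a was highest in cKOf mouse 6, at 130.1 against 90.3 CPM. Scp2 was highest in Ctrlf mouse 5, at 384 against 301 CPM.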

How the results depend on the processing

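Acaa1b, Ehhadh, Amacr and Acox3 in males, Acaa1b and Ehhadh in females, and the interaction of Amacr and Acox3 kept direction and call under every alternative run for them. Over all genes, male calls numbered 785 with the hepatocyte covariate and 599 without the 5 kidneys rich in hepatocyte transcripts, an alternative chosen after the data were seen that leaves fewer mice, against 1456. Female calls numbered 43 with adjustment over females alone and 83 without those kidneys, against 137. With each mouse left out they ranged from 1152 to 1726 and from 108 to 173. DESeq2 gave 1756 and 188 and limma-voom 1392 and 133.

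The male call of Hsd17b4 was lost in 15 of 34 alternatives, also with RLE scaling (0.24, adjusted p = 0.0600), every gene with a count (0.24, 0.157), a stricter filter (0.24, 0.0529), each sex alone (0.24, 0.0804) and the hepatocyte covariate (0.21, 0.281), all by edgeR, and the male change of Pex5 with that covariate (−0.31, edgeR adjusted p = 0.141). Ehhadh between cKO sexes did not pass with every gene with a count (0.39, edgeR adjusted p = 0.0532).

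Changes near 0 that did not pass took the other sign. Without the 5 kidneys these were Acaa1a (−0.0331) in males, Acox2 between control sexes (0.161), and the interactions of Hsd17b4 (−0.0715) and Acaa1b (−0.125). With the hepatocyte covariate they were Acaa1a between control sexes (−0.0297), between cKO sexes (−0.00960) and in the interaction (0.0201). Scp2 in females was 0.000846 with limma-voom, and Pex5 between cKO sexes −0.00195 with the stricter filter. With each mouse left out in turn, changes in females ranged from −0.0984 to 0.0456 for Acox2, from −0.0118 to 0.152 for Acaa1a and from −0.0490 to 0.0781 for Scp2. Differences between control sexes ranged from −0.164 to 0.000970 for Acox2 and from −0.00279 to 0.0957 for Acaa1a, those between cKO sexes from −0.0222 to 0.142 for Acaa1a and from −0.0309 to 0.0392 for Pex5, and the interaction of Acaa1a from −0.0851 to 0.0955.

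Mice with the same number in Ctrl and cKO groups are different animals. Their deviations from the group means correlated at −0.20 to 0.12 and only 2 of 12 numbers correlated best with their own, so the numbers do not pair the mice. With the replicate number as a block, 1268 genes were called in males and 110 in females, Hsd17b4 in males was 0.27 (edgeR adjusted p = 0.0588), Scp2 in females was 0.00134, and no other call of the 8 enzymes changed. Counts per enzyme did not limit any value, and reads aligned to several places, among them those shared by the thiolases, were not counted. The causes were not tested.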
